A study of Paralichthys olivaceus with 24 samples.

Results

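In muscle of olive flounder (Paralichthys olivaceus, a farmed flatfish), 144 genes stood far higher in the library from fish at 18 °C than in the libraries from fish at 12, 23 and 28 °C. They were chosen from the 11646 rows of the authors' table as those with at least 5 RPKM at 18 °C and at least 4 times the RPKM of each other library, and rows whose accession marks a non-coding transcript (XR_) were left out. RPKM corrects a read count for the length of the transcript and for library size, so it can be compared between genes. A gene symbol was at hand for 79 of the 144, and the other 65 are known by a numbered ID alone. Of the 79, 54 are on liver lists, which hold 161 of the 11646 rows, and 4 on a list of pancreatic digestive genes, which holds 13. The lists were chosen with earlier results of these data known. The remaining 21 include a metallothionein, an intestinal marker and 19 genes on no list.

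The fish were 9 months old and had been acclimated to 12 °C before warming, per the labels' protocols. These describe an acute regime of transfers at 3 h intervals and a chronic one in which the water warmed at 3 °C per h and was then kept warm for at least 20 h. The 4 libraries carry the letter C in their titles, and no label says which regime that letter marks. No strain, allele or agent is named, and by their labels the groups differ in temperature only. Differences between fish or between libraries cannot be told apart from temperature. Each temperature has 1 library, whether a library pools several of the 15 fish per treatment is not stated, and no value here has a replicate or an error estimate. Because the same values chose the genes, their levels are a description, and no test was run.

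Hepatocytes, the main cells of the liver, make most proteins of blood plasma: lipid carriers, metal carriers, clotting factors, complement and protease inhibitors. They also break down amino acids and purines and release or store sugar. The exocrine pancreas makes digestive enzymes, and in many bony fishes its tissue is spread among the abdominal organs and can lie within the liver. Skeletal muscle is known for contractile and calcium-handling proteins and is no major source of any of these products. In bulk tissue, fewer cells of a type and less RNA per cell cannot be told apart.

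Some muscle genes were high in all 4 libraries, though not every row of the muscle list was. The fast-muscle calcium buffer pvalb1 had 6441 RPKM at 12 °C, 5153 at 18 °C, 4481 at 23 °C and 2336 at 28 °C, and the Z-disc gene ldb3b had 501, 516, 398 and 257 RPKM in that order. None of the 12 muscle-list rows in the table was among the 144. The myosin light chain gene mylpf is listed at 0 at 18 °C and the calcium pump gene atp2a1l at 0 at 23 °C, although neither was under 14939.8 RPKM in any other library. Such a 0 may be an estimate that failed rather than a measured absence. Without these 2 rows the muscle list summed to 7093, 6175, 5426 and 6233 RPKM. The 28 °C sum holds smyd1 at 2429 RPKM and unc45b at 888 RPKM, genes of myosin folding that were at 36.7 and 25.6 RPKM at 12 °C. Without them too, a choice made after their values were seen, the other 8 rows summed to 7031, 6099.9, 5337 and 2916 RPKM. The table gives no counts, so the depth of the libraries is unknown. Ratios of the lowest values, 12 °C over the other library, had medians of 1.00, 0.981 and 1.01 for 18, 23 and 28 °C. Only near-equal values entered these medians, so they cannot show whether the depths were equal.

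**Figure D1:**
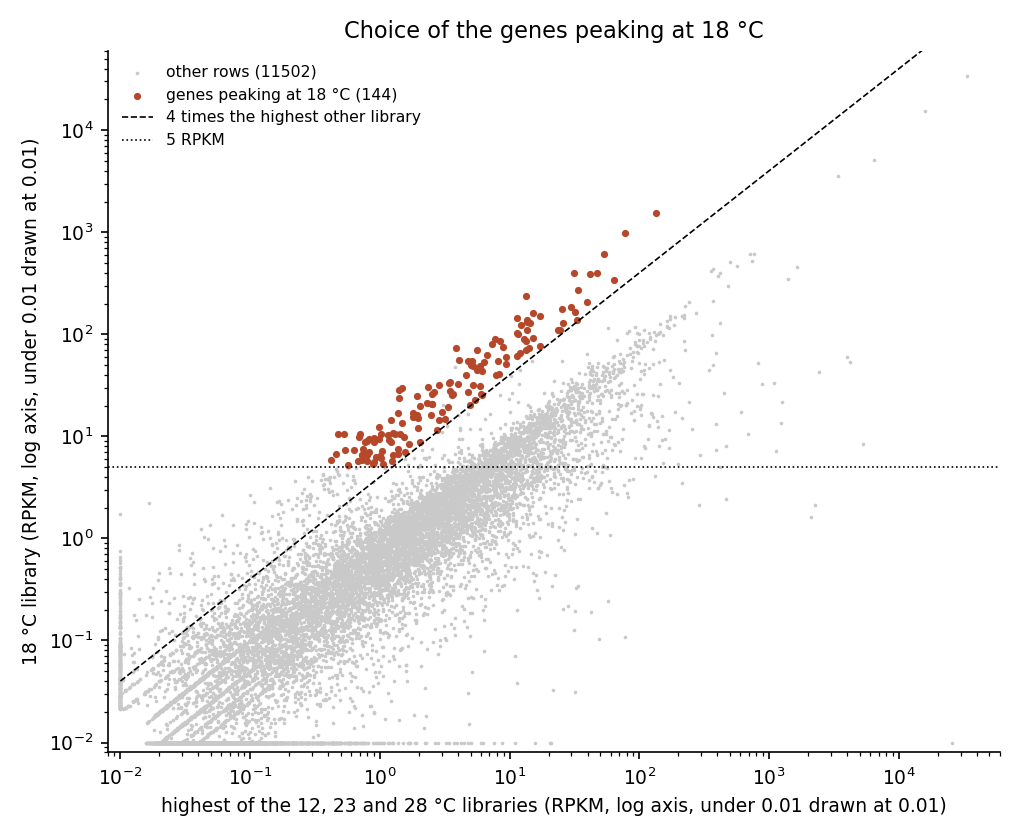
Each point is 1 row of the table, with its highest RPKM among the 12, 23 and 28 °C libraries on the x axis and its 18 °C RPKM on the y axis (both log axes, values under 0.01 drawn at 0.01). The 144 chosen genes (red) lie above both the dotted line at 5 RPKM and the dashed line at 4 times the highest other library, from 5.24 to 1544 RPKM at 18 °C.

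Of the 1358 rows with at least 5 RPKM at 18 °C and no XR_ accession, the 144 are 10.6%. The same rule applied to the other libraries gave 7 of 1365 rows at 12 °C (0.513%), 1 of 1079 at 23 °C (0.0927%) and 367 of 1591 at 28 °C (23.1%). Summed over the 144 genes, the level was 255 RPKM at 12 °C, 10867 at 18 °C, 309 at 23 °C and 1281 at 28 °C. This sum was 0.204%, 10.3%, 0.329% and 0.955% of the RPKM of all rows, and 0.305%, 12.0%, 0.455% and 1.30% when mylpf and atp2a1l were left out. The order of the libraries was thus 18, 28, 23 and 12 °C. A few genes carried much of the 18 °C sum, since apoa4 and apoa2 made up 23.3% of it. At the other end, 38 of the 144 were under 10 RPKM at 18 °C.

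The 28 °C library was the second highest for 140 of the 144. The 3 genes hgd, nmnat3 and def6c were second highest at 12 °C, and 1, pnp4b, at 23 °C. The authors' deposited table, which sorts its rows into 7 clusters, puts 143 of the 144 in its cluster 1 (1654 rows) and pnp4b in another.

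**Figure D2:**
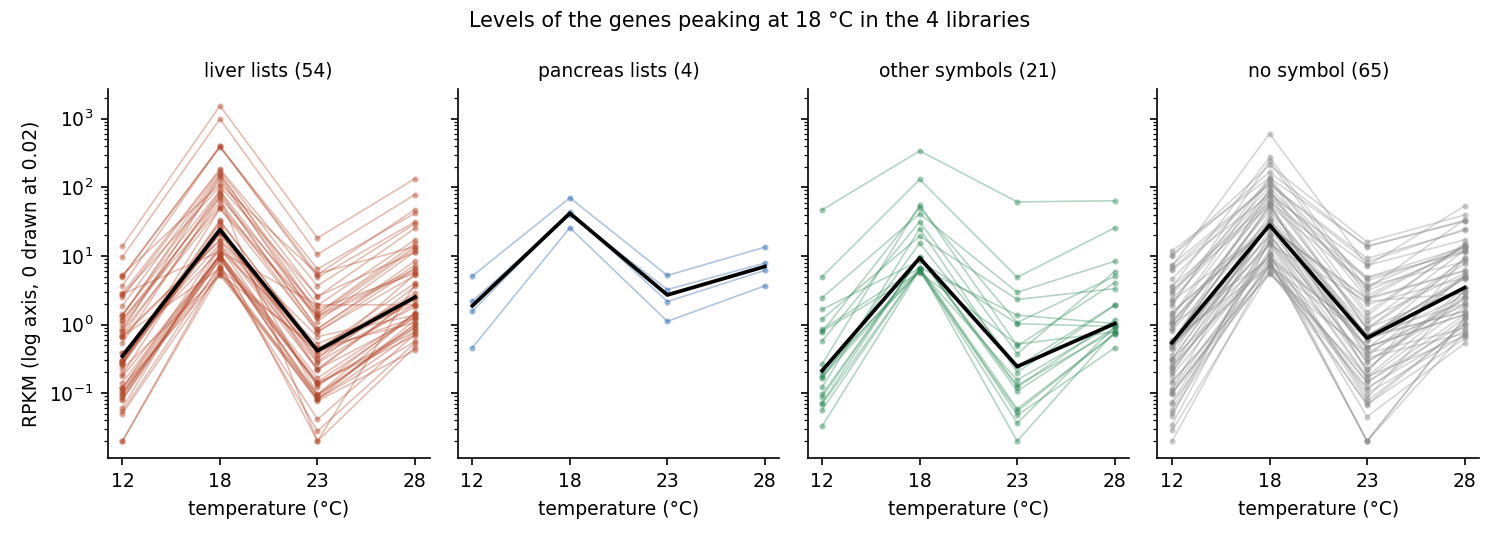
Levels of the 144 genes in the 4 libraries (x axis, temperature in °C; y axis, RPKM, log axis, values of 0 drawn at 0.02), with 1 thin line per gene and the median of each panel in black. Genes on liver lists had medians of 0.345, 24.04, 0.414 and 2.51 RPKM at 12, 18, 23 and 28 °C, and those without a symbol 0.543, 28.1, 0.634 and 3.45 RPKM.

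Lipid carriers held the highest levels. The apolipoprotein gene apoa4, which codes for a protein coat of lipoprotein particles, had 14.0 RPKM at 12 °C, 1544 at 18 °C, 18.3 at 23 °C and 134 at 28 °C. Another lipoprotein gene, apoa2, had 9.67, 991, 10.5 and 78.1 RPKM in the same order. For apoc1, a small apolipoprotein that slows lipoprotein clearance in mammals, the values were 5.07, 387, 6.44 and 42.0 RPKM. In all 3 genes the libraries at 12 and 23 °C lay close to each other and the one at 28 °C between them and 18 °C. The apolipoprotein M gene apom and the liver fatty acid and bile acid binding gene fabp10a were lower in level but had the largest ratios of 18 °C to the highest other library, 22.1 and 20.4. Their values were 0.120, 10.4, 0 and 0.472 RPKM for apom, and 0.187, 29.9, 0.0957 and 1.47 RPKM for fabp10a.

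Carriers of iron, haem, vitamins and minerals made up 9 of the 144, with 9.28 to 396 RPKM at 18 °C. The iron carrier transferrin (tfa) had 4.92, 396, 5.34 and 47.4 RPKM, in order of temperature. The fetuin gene ahsg1, whose product binds calcium phosphate, was at 3.70, 395, 4.85 and 31.4 RPKM. Hemopexin, which takes up free haem, has 2 genes here, hpxb at 2.52, 176, 2.54 and 25.3 RPKM and hpxa at 0.817, 145, 1.11 and 11.5 RPKM. The hemopexin genes are of like level at 18 °C, and hpxa was the lower of them in each other library. The remaining carriers were the second fetuin gene ahsg2, the retinol carrier rbp4 (2.69, 103, 2.57 and 11.4 RPKM), the microglobulin and bikunin precursor ambp (1.87, 162, 1.45 and 15.2 RPKM), the bone-binding phosphoprotein gene spp2 and the selenium carrier gene selenop2. Inter-alpha-trypsin inhibitor heavy chains, which bind bikunin and hyaluronan, are held by 3 rows (itih3 and 2 rows named itih2) at 49.1 to 79.7 RPKM at 18 °C. Reads of near-identical copies may be shared between such rows in a way the sources used here do not state.

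Clotting and fibrinolysis had 17 members, the most of any role. All 3 chains of fibrinogen, the protein that forms the clot, were present: fgb at 2.85, 185, 3.68 and 29.5 RPKM, fgg at 1.35, 152, 1.90 and 17.1 RPKM, and fga at 1.41, 89.996, 1.28 and 12.8 RPKM. In each chain the 18 °C level was 6.25 to 8.88 times the 28 °C level. Prothrombin (f2) was at 0.267, 49.2, 0.784 and 5.21 RPKM, and the thrombin inhibitor antithrombin (serpinc1) at 1.17, 53.3, 1.35 and 6.39 RPKM. The kinin precursor kng1 was at 0.902, 85.9, 0.849 and 8.42 RPKM. The set further held the factor genes f7i, f9 and f10, protein C (proca), 2 rows named plg for plasminogen, the inhibitors serpind1, serpina10b, serpinf2 and serpinf2a, and vitronectin (vtnb), at 5.24 to 32.9 RPKM at 18 °C. Clotting activators, clot components, clot-dissolving enzymes and the inhibitors of each were thus all present. Their shared order of libraries, 18 °C first and 28 °C second, is not particular to clotting. The rule sets the first place, and 28 °C was second for 140 of the 144 genes. Of the 25 rows of the clotting list, members or not, 23 were highest at 18 °C, a count that was not made over all rows and has no baseline. The exceptions were proza, highest at 12 °C (13.6, 12.4, 8.29 and 7.01 RPKM), and serpinf1, highest at 28 °C (4.04, 6.15, 7.44 and 18.2 RPKM).

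Complement, the plasma system that marks and lyses microbes, and related defence genes had 9 members at 8.95 to 62.6 RPKM at 18 °C. The C1 inhibitor serping1 was the highest of these, at 0.693, 62.6, 0.776 and 6.65 RPKM. Genes of the pore that complement forms in membranes were c5, c8a, c8b, c8g and c9. Of these, c9 was at 0.294, 22.5, 0.314 and 5.37 RPKM, so that its 28 °C level was 23.9% of its 18 °C level, against 8.86% to 12.0% for the others. Other genes of the same pore were not members, since c6 was at 22.1, 8.81, 8.61 and 6.55 RPKM, highest at 12 °C, and c7b at 1.63, 3.95, 0.335 and 4.65 RPKM, highest at 28 °C. The protease c1s.2 and the regulator cfi completed the complement members. The siderophore-binding lipocalin lcn2, a defence protein of liver and neutrophils in mammals, was at 0.578, 31.4, 0.376 and 5.90 RPKM.

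Another 5 members are carriers, precursors or relatives of hormones and growth factors, at 5.35 to 15.3 RPKM at 18 °C. They are igfals and igfbp2a, which bind insulin-like growth factors, the sex steroid carrier shbg, the angiotensin precursor agt and the hepatocyte growth factor relative mst1. In igfals the levels were 0.166, 15.3, 0.244 and 1.93 RPKM. In agt they were 0.669, 6.56, 0.405 and 1.26 RPKM, so agt was already at 10.2% of its 18 °C level at 12 °C.

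Enzymes that break down amino acids and purines had 9 members at lower levels, from 5.59 to 15.1 RPKM at 18 °C. Phenylalanine and tyrosine breakdown was held by pah, tat, hpda and hgd, and tryptophan, histidine, glyoxylate and urate breakdown by tdo2, ftcd, agxt with agxtb, and uox. The phenylalanine hydroxylase gene pah was at 0.175, 9.77, 0.138 and 0.690 RPKM. The tyrosine aminotransferase gene tat, also a glucocorticoid target, was at 0.0814, 8.82, 0.133 and 0.900 RPKM. For the homogentisate dioxygenase gene hgd, in the same tyrosine pathway, the values were 2.77, 11.6, 1.93 and 1.94 RPKM. Thus hgd at 12 °C was at 23.9% of its 18 °C level, while pah, tat and hpda were at 0.924% to 1.79% of theirs. The list of glucocorticoid and stress genes has 11 rows, of which 2 were members, tat and the metallothionein gene mt2. Over the 11 the median change in log2(RPKM + 1) from 12 to 18 °C was -0.50. A part of glucocorticoids in the level of tat was not tested.

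Sugar, lipid and other metabolism held 11 members. The lipogenic regulator thrsp was at 0.540, 73.7, 0 and 3.85 RPKM, with a ratio of 19.1 to the highest other library. The mitochondrial uncoupling protein gene ucp1, which in carp is expressed mainly in liver, was at 0.122, 25.02, 0.199 and 1.92 RPKM. Others were the retinol dehydrogenase dhrs9, the inositol oxygenase miox, the uridine phosphorylase upp2, the diamine oxidase aoc1 and the apolipoprotein B mRNA editing cofactor a1cf. With them were the nucleoside diphosphate kinase nme4, the NAD synthesis enzyme nmnat3 and the nucleoside phosphorylase pnp4b. All 8 of these were at 5.91 to 19.4 RPKM at 18 °C.

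**Figure D3:**
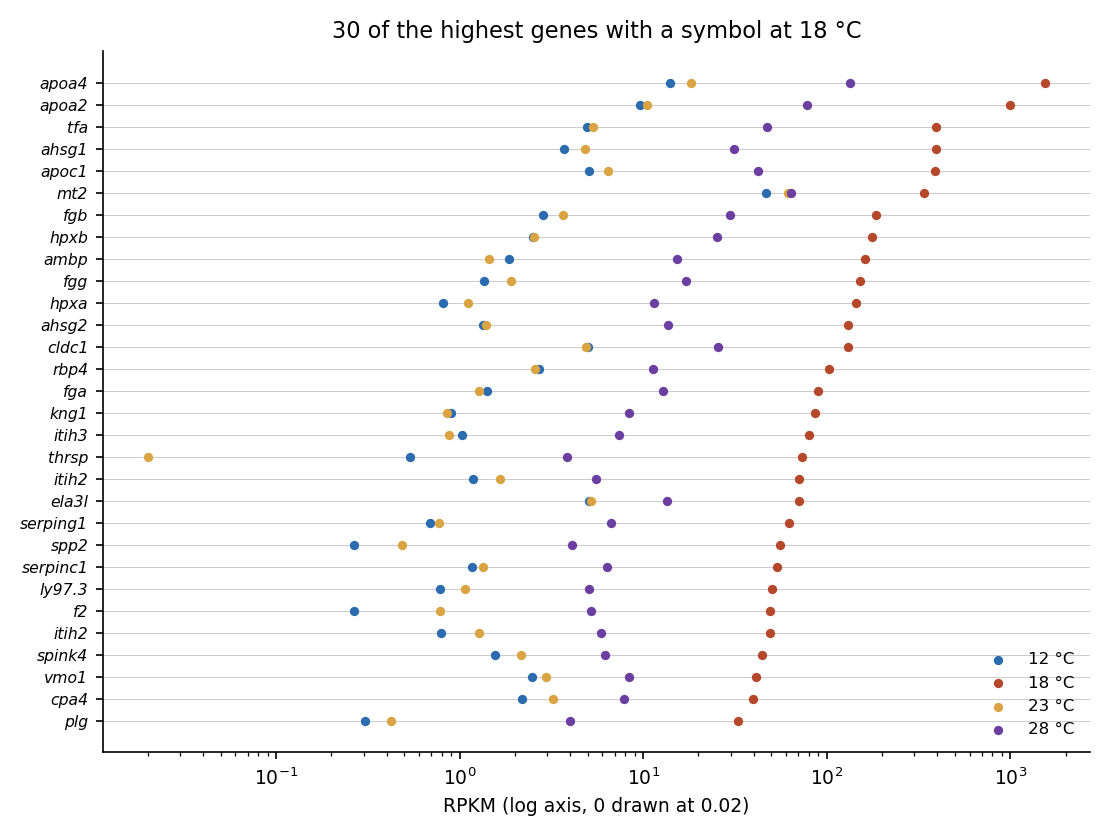
RPKM (x axis, log axis, a value of 0 drawn at 0.02) of 30 of the highest genes with a symbol at 18 °C, with 1 dot per library. The 12 and 23 °C dots lie to the left of the 28 °C dot, but in mt2 the 3 lie close together, at 46.9, 61.3 and 63.6 RPKM.

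Pancreatic digestive genes were few but high. The elastase gene ela3l, a serine protease of pancreatic juice, was at 5.08, 70.3, 5.19 and 13.4 RPKM. The carboxypeptidase gene cpa4 was at 2.19, 39.6, 3.23 and 7.86 RPKM, and the trypsin gene prss1 at 0.458, 25.8, 1.11 and 3.67 RPKM. The protease inhibitor spink4, of a family that restrains trypsin, was at 1.56, 44.2, 2.16 and 6.16 RPKM. These 4 genes had a larger share of their level at 28 °C than most liver-list genes, with 13.9% to 19.9% of the 18 °C level against a median of 10.8% (quartiles 8.88% and 12.3%) over the 54. At 12 °C they had 1.78% to 7.23%, against a liver-list median of 1.14%. The rule caps these percentages at 25, and 3 more pancreatic genes fell just outside it for that reason. The carboxypeptidase gene cpa1 had 45.1 RPKM at 18 °C against 12.1 at 28 °C, cpb1 had 54.9 against 14.8, and the phospholipase gene pla2g1b had 11.1 against 3.01. Over all 7 pancreatic rows with at least 5 RPKM at 18 °C, members or not, the 28 °C level was between 13.9% and 26.995% of that at 18 °C, with a median of 19.9%. The 78 liver-list rows taken in the same way had a median of 12.0% and quartiles of 9.70% and 25.8%, so the pancreatic and liver ranges overlapped. Regulators and hormones of the pancreas were near 0 at 18 °C: ptf1a at 0.0420 RPKM, rbpjl at 0.115 and 0.0747 RPKM in its 2 rows, bhlha15 at 0.0557 RPKM, and pdx1 and gcg listed at 0.

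Not all members are liver or pancreas genes by name. The metallothionein gene mt2, which binds zinc and copper in many tissues, was at 46.9, 339.9, 61.3 and 63.6 RPKM. It was the highest of the 144 in the 12 and 23 °C libraries and the sixth highest with a symbol at 18 °C. The NAD synthesis enzyme gene nmnat3 was at 1.66, 8.49, 1.03 and 0.936 RPKM, the nucleoside phosphorylase gene pnp4b at 0.847, 6.77, 1.37 and 1.03 RPKM, and def6c, an exchange factor gene known from T cells in mammals, at 0.794, 5.68, 0.516 and 0.783 RPKM. Together with hgd and agt, named above, these are the 6 genes with a symbol that had at least 10% of their 18 °C level at 12 °C, and 1 without a symbol did too. They were singled out after their values were seen. In hgd, nmnat3 and def6c the 28 °C level was below the 12 °C level, unlike the other 141 members. Among the rest, tm4sf5, a membrane protein gene on the intestinal list, was at 0.186, 6.76, 0.0474 and 0.458 RPKM, and siae, which removes acetyl groups from sialic acid, at 0.0884, 9.34, 0.130 and 0.818 RPKM. For cldc1 (4.98, 130.3, 4.88 and 25.7 RPKM), ly97.3 (0.783, 50.5, 1.07 and 5.04 RPKM) and vmo1 (2.47, 41.3, 2.95 and 8.36 RPKM) no role is given here.

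**Figure D4:**
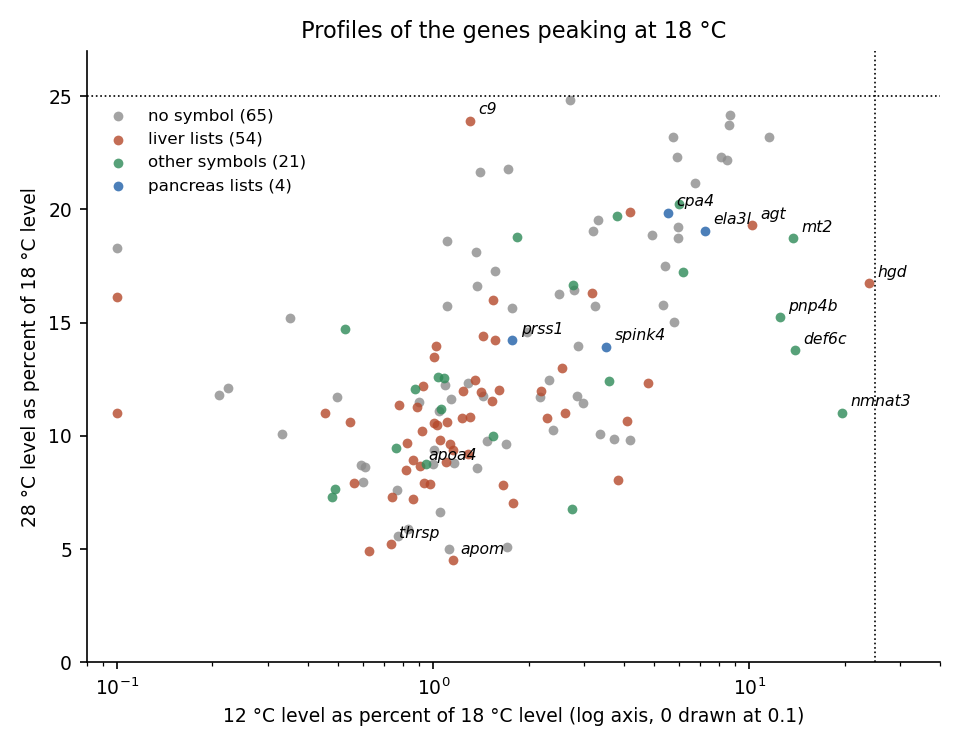
Each point is 1 of the 144 genes, with its 12 °C level (x axis, log axis, 0 drawn at 0.1) and its 28 °C level (y axis) as percent of its 18 °C level; dotted lines mark the 25% cap that the rule sets. Liver-list genes gather near 1% and 11%, the 4 pancreatic genes lie higher on both axes, and mt2, hgd, nmnat3, def6c, pnp4b and agt lie to the right.

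The 65 members without a symbol were at 5.36 to 608 RPKM at 18 °C, with a median of 28.1 RPKM against 21.3 RPKM for the 79 with one. The highest, LOC109638865, was at 7.05, 608, 7.14 and 53.4 RPKM, below apoa4 and apoa2 alone at 18 °C. Of the 65, 30 had at least 15% of their 18 °C level at 28 °C, compared with 7 of the 54 liver-list genes and 2 of the 4 pancreatic ones. At 12 °C, 13 of the 65 had at least 5% of the 18 °C level, compared with 2 of 54 and 2 of 4. Their names are not in the tables used here, so no function is given for them.

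Some members are neighbours in the genome. On the RefSeq assembly ASM2471397v2, used for gene order and, by gene ID, for symbols, 124 of the 144 could be placed. Of these, 28 (22.6%) had another member among the 3 coding genes on either side. Of 8233 other rows that could be placed, 280 (3.40%) had a member that close. The 28 form 13 groups of up to 3 genes, among them the clotting factor genes f10 and f7i and the apolipoprotein genes apoa2 and apoc1. Another group holds c8g, the other 10 groups hold no gene with a symbol, and whether their genes are copies of each other was not tested.

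Whole marker lists show which tissues' genes were high at 18 °C, members or not. Of 161 liver-list rows in the table, 54 were members, while members were 1.24% of all rows. Of the 161, 127 were highest at 18 °C. A further 42 reached the ratio of 4 but not 5 RPKM. Rows highest at 18 °C, or reaching the ratio below 5 RPKM, were not counted over all rows, so no list here has a baseline for such counts. Low rows on no list can reach the ratio too, such as tmem244 at 0.0707 RPKM at 18 °C and 0 in each other library. Whether being highest at 18 °C, or reaching the ratio below 5 RPKM, was more common among liver-list rows than among all rows was not tested. The plasma transport list (27 rows, 15 members) summed to 69.4, 4781, 68.9 and 511 RPKM, and the clotting list (25 rows, 16 members) to 30.6, 841, 30.1 and 129 RPKM. The complement and acute phase list (17 rows, 9 members) summed to 93.9, 251, 31.5 and 70.1 RPKM, with 11 rows highest at 18 °C and cfd, an activating protease, at 43.6, 31.9, 12.0 and 16.8 RPKM. The exocrine pancreas list (13 rows, 4 members) summed to 17.5, 295, 22.9 and 62.5 RPKM. Amino acid breakdown was mixed, with 9 of 36 rows as members and sums of 218, 269, 275 and 486 RPKM. Of these rows 28 were highest at 18 °C, and the sums hold gldc at 87.5, 50.4, 184 and 368 RPKM. What part RNA of liver and pancreas has in the 144 was not tested.

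Some liver functions had few or no members. None of the 12 bile acid and xenobiotic rows was a member, although 9 were highest at 18 °C and 6 reached the ratio of 4 at under 5 RPKM, among them cyp4v2a at 0.0189, 3.82, 0.0965 and 0.393 RPKM. The counts of 9 and 6 have no baseline over all rows either. In the same list cyp7a1, the rate-limiting enzyme of bile acid synthesis, was at 0.121, 0.327, 0.123 and 0.273 RPKM, and the bile acid importer slc10a1 was listed at 0 at 18 °C. The egg yolk precursor vtg3 was at 0.0347 RPKM at 18 °C. Sugar release and fat synthesis had 2 members of 23 rows, among them thrsp. Liver-enriched transcription factors had no member, with hnf4a and foxa2 at 0.545 and 0.395 RPKM at 18 °C.

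Of the 21 lists, 12 had no member. Besides muscle, heat shock, bile acid and egg proteins, these were endocrine pancreas, kidney, blood cells, immune cells, skin and gill epithelium, adipose tissue, nerve and pituitary, and gonad. At 18 °C the kidney list (5 rows) summed to 0.331 RPKM and the blood cell list (5 rows) to 0.957 RPKM. These lists name 13 and 16 symbols, so many of their genes have no row, and no haemoglobin gene is among the blood cell rows. The low sums therefore do not show that RNA of these tissues was absent. Immune cells (11 rows) summed to 48.5, 11.8, 9.71 and 28.8 RPKM from 12 to 28 °C, with 0 rows highest at 18 °C. Adipose tissue (2 rows) summed to 3.24, 6.04, 1.85 and 10.8 RPKM.

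**Figure D5:**
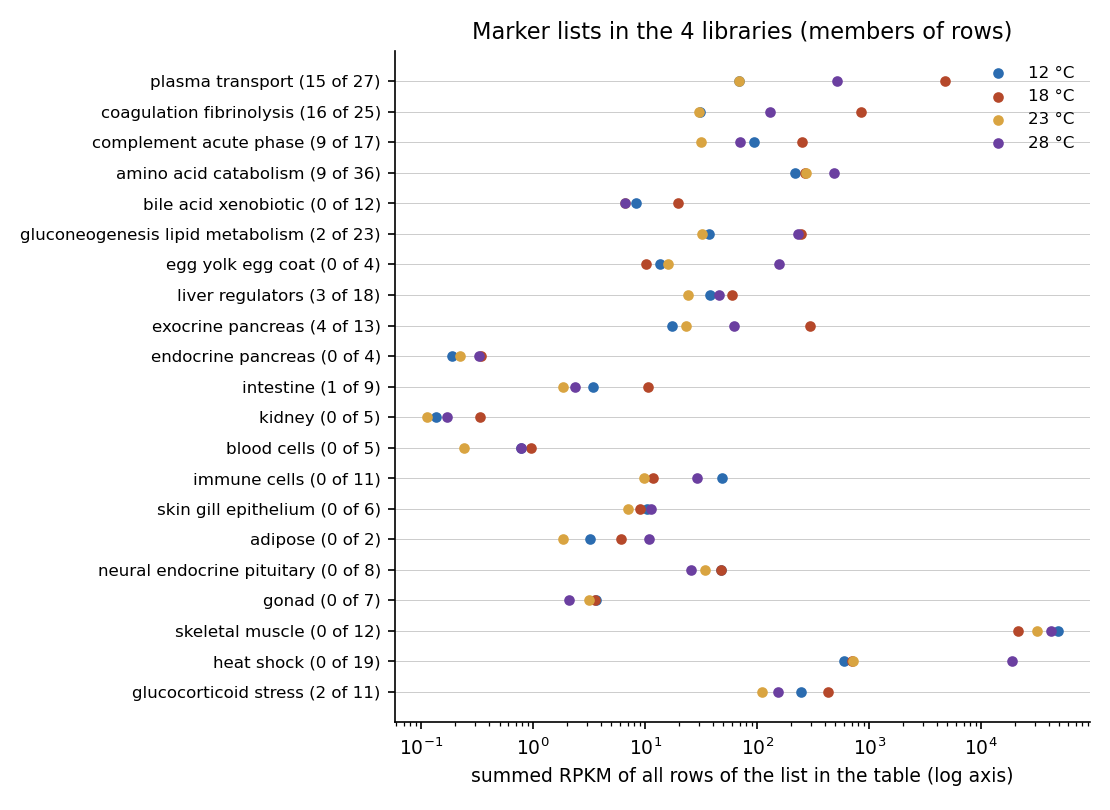
Summed RPKM (x axis, log axis) of all rows of each marker list in the 4 libraries, with the number of members of the number of rows in brackets. The plasma transport, clotting and exocrine pancreas lists are highest at 18 °C and second highest at 28 °C. The kidney and blood cell lists, with 5 rows each, stay under 1 RPKM, and many of their genes have no row. The muscle sums include the 2 rows listed at 0 in 1 library.

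Set against 12 °C on the log2(RPKM + 1) scale, which understates the change of low genes, the 144 genes lay 1.74 to 6.69 above 12 °C in the 18 °C library, so each passed 2-fold higher and 0 passed 2-fold lower. Over all rows the shares were 3.13% and 1.02%, and nothing is read from this, since the rule used the same contrast. At 28 °C, 93 of the 144 were at least 2-fold higher and 0 lower, against 13.5% and 8.71% of all rows. Their median log2 fold at 28 °C was 1.38, against 0.02 over all rows. At 23 °C, 1 of the 144 was at least 2-fold higher (1.03% of all rows) and 0 lower (3.63%), and the median was 0.05, against -0.03 over all rows. That gene, LOC109624105, was named for this value. The rule holds the levels at 12, 23 and 28 °C at or under 25% of that at 18 °C, which limits these folds, and all of them share the 12 °C library. At 12 °C 94 of the 144 were under 1 RPKM, and 9 were listed at 0 in at least 1 library. A gene under 1 RPKM at 12 °C cannot be 2-fold lower on this scale. Members also had to reach 5 RPKM at 18 °C, which 1358 of the 11646 rows did without an XR_ accession. All rows are therefore not a like baseline for the members. Nothing is read from the counts higher or lower, or from the medians, at 23 and 28 °C beside those of all rows.

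At the edges of the rule, counting rows with a symbol alone, c9, hgd and vmo1 had the smallest ratios among members, 4.18, 4.19 and 4.94, and the ceruloplasmin gene cp, cpa1 and pla2g1b the largest below 4, at 3.79, 3.72 and 3.71. At the minimum level, serpinf2a, igfbp2a and agxt were just inside with 5.24, 5.35 and 5.59 RPKM, and fbp1b, cpb2 and vtna just outside with 4.91, 4.25 and 4.20 RPKM, again of rows with a symbol. Some rows without a symbol lie as close to these thresholds or closer. There were 3 XR_ rows that met the rest of the rule, among them the apolipoprotein gene apoc2 at 0.912, 54.8, 0.582 and 5.28 RPKM.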

How the data were processed

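Total RNA of gill, liver and muscle was sequenced in 24 samples per the labels, and 4 of them, muscle titled C at 12, 18, 23 and 28 °C, are columns of the RPKM table; the other 20 were not analysed here. The deposited RPKM values were made by the authors, with the tools TopHat2 and Cufflinks per the submitters' processing notes; the genome build is not given in the sources used here. The authors' fold columns hold natural log ratios to 12 °C plus a constant, as read from the deposited values, under headers that name log2. All 11646 rows are at least 2-fold from 12 °C in 1 or more of them, so shares of the table are not shares of all genes. The other deposited number, the authors' cluster, was used as a label.

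Of the 79 symbols, 37 came from the table and 42 from RefSeq by gene ID. Lists were matched by symbol, also with the suffix of a gene copy. The members and lists were chosen with earlier results of these data known, and roles were assigned after the members were seen. Named are the 10 highest members, the 10 with the largest ratio (a library at 0 set to 0.01), the 6 highest of each list, the 25 highest in no list and the 3 nearest each threshold on both sides; other members with a symbol are named to account for them. Folds used a pseudocount of 1. The calculation that chooses the genes was run on simulated rows raised by known folds, which checks the calculation and not the choice made from the real rows. Scripts used Python 3.11.15, numpy 2.4.6 and pandas 2.3.3. The alternatives were another minimum, ratio, scaling or pseudocount. Some named genes are not reported here. With no replicates, no p-value was computed.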

Additional observations from a re-analysis of the deposited data

How the results depend on the processing

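The number of genes peaking at 18 °C was 144 and lay between 106 and 203 with a minimum of 10 or 2 RPKM, a ratio of 3, either scaling, RPKM + 1 in the ratio, or XR_ rows kept; with a ratio of at least 8 it was 84. After scaling by median ratios (2749 rows; shifts of -0.29, -0.52 and -0.59 on the log2 scale at 18, 23 and 28 °C) 132 of the 144 remained among 140, and with the authors' constants 141 of 141. Liver-list members numbered 42 to 75, against 54. Pancreatic members numbered 4, but 7 with a ratio of at least 3 and 0 with a ratio of at least 8. The members' median log2 fold at 28 against 12 °C, 1.38, was 2.52 with a pseudocount of 0.1, 1.82 after median scaling, 1.27 with the authors' constants and 1.76 with a pair mean of at least 1 RPKM. At 23 °C, 0.05 became 0.13, 0.26, 0.20 and 0.19 in that order, and the 1 gene at least 2-fold higher became 8 with a pseudocount of 0.1 and 3 after median scaling. The cause was not tested. With the 12 °C level subtracted, the median 28 °C level as percent of that at 18 °C was 9.57 for liver-list and 12.7 for pancreatic members, against 10.8 and 16.6; for liver-list members with at least 20 RPKM it was 10.7. Protein and promoter features were not analysed here. No paired analysis was possible because each temperature has 1 library, which also leaves no replicate to leave out. With no counts in the table, counting error cannot be given.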

Other observations

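Below 5 RPKM, further liver genes were highest at 18 °C. The cholesterol-esterifying enzyme gene lcat had 0.0342 RPKM at 12 °C, 4.19 at 18 °C, 0.104 at 23 °C and 0.557 at 28 °C. The clotting factor gene f7 had 4.03 RPKM at 18 °C against 0.439 at 28 °C, and f5 had 3.20 against 0.595. The hepatic glucose transporter gene slc2a2 was at 0.0364, 2.80, 0 and 0.251 RPKM, and the growth factor gene igf1 at 0.159, 2.397, 0.270 and 0.260 RPKM. In igf1 the 28 °C level was slightly below that at 23 °C, while in lcat, f7, f5 and slc2a2 it was above. These genes were picked after their values were seen.

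Some liver-list genes were not highest at 18 °C, or were highest there by less than the ratio of 4. The antimicrobial peptide gene leap2 was at 1.56, 17.7, 4.65 and 58.7 RPKM, highest at 28 °C, and the hepcidin gene hamp, an iron regulator, at 16.2, 5.09, 4.13 and 7.32 RPKM, highest at 12 °C. The haptoglobin gene hp, whose product binds free hemoglobin, was at 0.397, 9.36, 0.446 and 4.33 RPKM, so its 28 °C level was 46.2% of that at 18 °C. The 1 gene that met the same rule at 23 °C was nppcl2, of the natriuretic peptides, with 12.0 RPKM at 23 °C and 2.08 to 2.30 elsewhere.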
